A study of Mus musculus with 23 samples.

Results

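The ID and HES/HEY proteins are helix-loop-helix factors of neural precursors, most of which hold back neuronal differentiation. The 10 genes Id1, Id2, Id3, Id4, Hes1, Hes5, Hes6, Hey1, Hey2 and Heyl were followed here by every probe set that the array annotation gives to 1 of these symbols. This gave 18 of the 45101 probe sets and 10 of the 18193 annotated genes. Of the 18, 17 passed the filter on low signal, and the exception was the Id4 probe set 1423259_at. All 10 genes kept at least 1 tested probe set, and each gene is represented by its probe set of highest mean log2 signal.

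RNA came from medulloblastomas of Ptch+/-HIC+/- mice that had been dissociated and grown subcutaneously in the flank of Harlan nu/nu mice, which lack a thymus but keep macrophages and other innate immune cells. NVP-LDE225 is an antagonist of Smoothened, the signal transducer of the Hedgehog pathway, and all groups shared the same tumour genotype and host strain. Vehicle tumours form a group of 3 arrays without a time in the labels and a group of 2 arrays at 4 h. The drug at 40 mg/kg was given to groups of 3 arrays each at 4, 8, 24 and 48 h. Tumours described as resistant form 2 further groups of 3 arrays, at 40 mg/kg and at 160 mg/kg, and the labels give no time for them. The labels give no age of the mice. Nor do they state whether arrays of a group come from separate animals, so the p-values measure the spread between these arrays, which may be technical. Because whole tumours were measured, fewer cells of a type and less RNA per cell cannot be told apart.

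ID proteins carry a helix-loop-helix without the basic DNA-binding stretch, and they bind E proteins such as Tcf3, Tcf4 and Tcf12, so that proneural partners such as Atoh1 and Neurod1 cannot use them. Id genes are classical targets of BMP and SMAD signalling. HES and HEY proteins bind DNA and repress proneural genes, and HES proteins recruit Groucho/TLE corepressors through a WRPW tail. Hes1, Hes5, Hey1, Hey2 and Heyl respond to Notch through RBPJ, whereas Hes6 is expressed in committed neuronal precursors and opposes Hes1. In granule neuron precursors of the cerebellum, the cells from which Hedgehog-driven medulloblastoma arises, Hes1 also responds to Hedgehog signalling.

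Promoter sequence from RefSeq on the GRCm38.p6 build was given for 6 of the 10 members, Hes5, Hes6, Hey2, Id2, Id3 and Id4. The 250 bases before the annotated start are printed for Hes6, Id2 and Id3, whose signals changed, and for Id4 and Hey2, which were of low signal and carry the core letters of the RBPJ site. Capitals mark matches on either strand to the RBPJ letters TGGGAA and to the HES N-box CACNAG.
Id4, chr13:48260866-48261115, plus strand: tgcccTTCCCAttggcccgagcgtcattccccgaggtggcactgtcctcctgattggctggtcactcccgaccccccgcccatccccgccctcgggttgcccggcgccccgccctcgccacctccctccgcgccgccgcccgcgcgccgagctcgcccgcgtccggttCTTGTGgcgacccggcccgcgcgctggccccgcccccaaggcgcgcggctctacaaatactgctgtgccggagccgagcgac
Hey2, chr10:30842784-30843033, minus strand: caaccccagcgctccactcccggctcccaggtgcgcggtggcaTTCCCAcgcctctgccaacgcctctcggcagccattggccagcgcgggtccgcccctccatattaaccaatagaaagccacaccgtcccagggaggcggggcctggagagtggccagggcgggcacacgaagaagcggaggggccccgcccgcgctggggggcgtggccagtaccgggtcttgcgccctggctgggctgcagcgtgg
Hes6, chr1:91414039-91414288, minus strand: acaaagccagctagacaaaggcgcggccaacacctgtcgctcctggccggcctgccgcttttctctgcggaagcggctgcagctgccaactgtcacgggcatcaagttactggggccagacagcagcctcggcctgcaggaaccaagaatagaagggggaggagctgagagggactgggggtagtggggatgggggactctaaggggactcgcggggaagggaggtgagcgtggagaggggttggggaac
Id2, chr12:25096093-25096342, minus strand: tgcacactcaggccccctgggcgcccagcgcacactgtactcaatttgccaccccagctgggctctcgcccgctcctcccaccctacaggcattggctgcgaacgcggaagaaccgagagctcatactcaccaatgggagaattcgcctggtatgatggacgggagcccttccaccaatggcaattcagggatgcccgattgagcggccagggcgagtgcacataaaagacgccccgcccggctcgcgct
Id3, chr4:136143572-136143821, plus strand: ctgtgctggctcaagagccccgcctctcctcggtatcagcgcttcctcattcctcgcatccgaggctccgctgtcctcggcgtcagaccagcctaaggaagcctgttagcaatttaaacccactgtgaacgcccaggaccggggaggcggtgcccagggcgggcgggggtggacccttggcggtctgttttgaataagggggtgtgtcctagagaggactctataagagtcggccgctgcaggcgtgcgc
Hes5, not printed because its window lies inside the annotated span of the gene, held 2 matches to the RBPJ letters, 226 and 82 bases before the start, and Hey2 held 1 at 207 bases. Id4 held 1 RBPJ match at 245 bases and 1 N-box match at 82 bases. The windows of Hes6, Id2 and Id3 printed here held neither, and a second Hes6 window, from another start, held 1 N-box match at 237 bases. Of 32851 windows of this length, 21.6% held the RBPJ letters and 36.7% the N-box letters. The E-box CANNTG, found in 66.2% of windows, matched 3 times in the printed Hes6 window, once each in Hes5, Hey2 and Id2, and nowhere in Id3 or Id4; it is not capitalised above. The GLI site letters TGGGTGGTC, present in 0.225% of windows, were in none of the 6 promoters. These are matches of letters within a short window and say nothing of binding. On the same build the members without a window lie at chr16:30065357-30067796 (Hes1), chr3:8663359-8667038 (Hey1), chr2:152736251-152737410 (Id1) and chr4:123233556-123249870 (Heyl).

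Signals are the deposited MAS5 intensities in arbitrary units, and differences are log2 differences of signal plus 16 with their standard error (SE). A gene is called when its adjusted p from limma is below 0.05. The array's 40th percentile, from 18.7 to 28.6 over the 23 arrays, serves as the mark of low signal. Median signals ran from 33.9 to 46.7. Gli1, the Hedgehog target used as a check of the drug, averaged 678.8 ± 42.2 on the vehicle arrays and 12.3 ± 7.37 at 48 h, against 1165 ± 172.1 in resistant tumours at 40 mg/kg and 632.8 ± 60.9 at 160 mg/kg (SD, n = 3 each). The granule neuron markers Atoh1, Zic1, Zic2, Barhl1 and Pax6 lay above the 40th percentile on every array. The source names of 6 of the 12 arrays treated for 4 to 48 h call the tumour resistant, contrary to their descriptions, by which arrays are grouped here. As a measure of RNA integrity, actin signal near the 3' end was set over that near the 5' end, and the log2 of this ratio was 1.04 ± 0.04 for vehicle, 1.65 ± 0.22 at 24 h and 0.92 ± 0.07 at 48 h (SD, n = 3 each), and its part in the results at 24 h was not tested.

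The members did not move as a block under the drug. Hes1 fell, Id2, Id3 and Hey1 rose, and Hes6 first rose and then fell below vehicle. At 4 h against the 4 h vehicle 1 of 10 members was called, against 0.347% of all tested genes. At 8 h, against the same 4 h vehicle since no 8 h vehicle exists, 3 were called, 2 higher and 1 lower, against 4.6% of genes. At 24 h, against the vehicle arrays that have no time label, 6 were called, 4 higher and 2 lower, against 34.1%. At 48 h 5 were called, 3 higher and 2 lower, against 46.4%. The share of members called at 48 h was thus close to that of all genes. The median log2 difference over the 10 members was 0.04, 0.16, 0.04 and -0.09 at the 4 times, beside 0.01, 0.04, 0.10 and 0.06 over all genes. The 4 h and 8 h comparisons share their controls, as do the 24 h and 48 h comparisons.

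**Figure D1:**
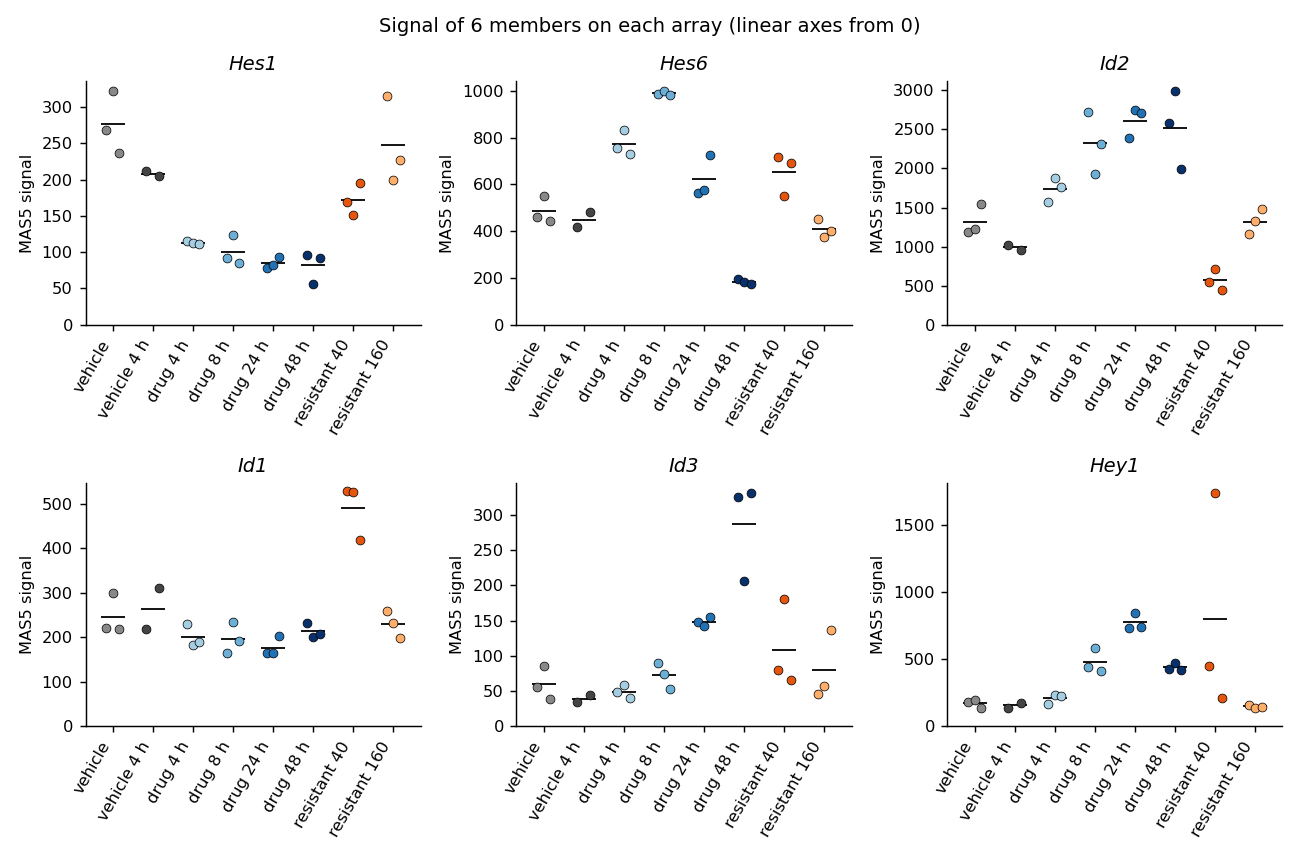
MAS5 signal of Hes1, Hes6, Hey1, Id1, Id2 and Id3 on each of the 23 arrays (points, linear axes from 0, arbitrary units) in the 8 groups, with a line at each group mean. Hes1 is lower at all 4 drug times than with vehicle, Hes6 peaks at 8 h and is lowest at 48 h, Id2 is lowest in resistant tumours at 40 mg/kg, and 1 of the 3 Hey1 values in that group, 1731.8, stands far above the other two.

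Hes1, a repressor of proneural genes that keeps precursors undifferentiated, read 268.7, 322.6 and 236.9 on the vehicle arrays and 211.9 and 204.6 on the 4 h vehicle arrays. It read 115.7, 112.1 and 111.8 at 4 h, 92.6, 124.4 and 84.8 at 8 h, 78.8, 81.8 and 94.1 at 24 h, and 96.8, 56.2 and 92.5 at 48 h. Every drug-treated array lay below every vehicle array. The fall was called at 8 h (-0.96 ± 0.20 log2, SE, adjusted p = 0.00722), 24 h (-1.53 ± 0.18, adjusted p = 6.66e-07) and 48 h (-1.60 ± 0.18, adjusted p = 1.66e-07). At 4 h the difference from the 4 h vehicle was -0.80 ± 0.20 and missed the threshold (adjusted p = 0.137). Against the vehicle arrays that have no time label the 4 h difference was -1.17 (adjusted p = 0.000557), so the 4 h call turned on which vehicle served as control. The 4 h drug arrays and the untimed vehicle arrays fall in different runs of sample title numbers. That contrast therefore also sets 1 run against another. The 8 h call was lost when either 4 h vehicle array was left out (adjusted p = 0.0802 without replicate 1 and 0.0718 without replicate 2), and with runs of title numbers as a block (adjusted p = 0.0956). From 4 h on, no neighbouring drug times were called apart.

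Hes1 in resistant tumours at 40 mg/kg read 169.8, 150.7 and 194.9, between the vehicle and the 48 h values. It was higher than at 48 h (0.96 ± 0.18, adjusted p = 0.000239) and lower than with vehicle (-0.63 ± 0.18, adjusted p = 0.0357). The latter call was lost when resistant replicate 1 or 2, or vehicle replicate 1 or 2, was left out (adjusted p = 0.0792, 0.133, 0.0874 and 0.166). It was also lost against the 4 h vehicle as control, where the difference was -0.26 (adjusted p = 0.544). Hes1 at 160 mg/kg read 315.1, 200.1 and 227.4, a range that overlapped vehicle (-0.16 ± 0.18, 95% interval -0.54 to 0.22). That group lay above the 48 h arrays by 1.43 ± 0.18 (adjusted p = 1.55e-06).

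Hes6, which marks committed neuronal precursors, took the opposite course to Hes1 in the first hours. It read 462.7, 550.6 and 443.0 on the vehicle arrays, 418.5 and 481.4 on the 4 h vehicle arrays, 753.5, 832.9 and 729.5 at 4 h, and 987.3, 1000.5 and 982.9 at 8 h. All 6 early drug arrays were above all 5 vehicle arrays. The rise was called at 4 h (0.76 ± 0.13, adjusted p = 0.00664) and at 8 h (1.11 ± 0.13, adjusted p = 1.1e-05). The 4 h call was lost without drug replicate 2 (adjusted p = 0.0632) or 4 h vehicle replicate 1 (adjusted p = 0.225), and with runs of numbers in the titles of the samples as a block (0.66, adjusted p = 0.239).

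Hes6 then dropped. At 24 h it read 561.7, 577.1 and 727.0, still above vehicle by 0.34 ± 0.12 (adjusted p = 0.033) but below 8 h by 0.67 (-0.67 ± 0.12, adjusted p = 0.000423). The 24 h call against vehicle was lost without drug replicate 3 (0.23, adjusted p = 0.202) or without vehicle replicate 1 or 3 (adjusted p = 0.101 and 0.134). At 48 h it read 194.2, 184.5 and 174.1, below every other array of the series, by -1.32 ± 0.12 against vehicle (adjusted p = 4.29e-09) and -1.66 ± 0.12 against 24 h (adjusted p = 4.52e-09). Its second probe set, 1452021_a_at, also rose at 8 h (1.07 ± 0.24, adjusted p = 0.0102) and fell at 48 h (-1.08 ± 0.21, adjusted p = 0.00024). The leading set, 1436050_x_at, is of a kind whose probes can match other transcripts, so its values are uncertain where the sets differ: the second was not called at 4 h (0.58, adjusted p = 0.63) or at 24 h (-0.02, adjusted p = 0.951).

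Hes6 in resistant tumours at 40 mg/kg read 716.9, 548.7 and 692.0, far above the 48 h arrays (1.73 ± 0.12, adjusted p = 1.34e-10) by both probe sets (1.18 ± 0.21 for the second, adjusted p = 0.000128). Against vehicle it was higher by 0.41 ± 0.12 (adjusted p = 0.037), with overlapping ranges. This call was lost without resistant replicate 1 or 3, or without vehicle replicate 1 or 3 (adjusted p from 0.104 to 0.152), and the second probe set gave 0.11 (adjusted p = 0.846). Hes6 at 160 mg/kg read 453.8, 376.6 and 400.5, lower than at 40 mg/kg by -0.64 ± 0.12 (adjusted p = 0.00327), while the second probe set gave -0.34 (adjusted p = 0.584).

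Hey1, a Notch-responsive repressor known from vessels and from neural precursors, rose later than Hes6. It read 182.6, 197.6 and 134.0 on the vehicle arrays, 139.4 and 177.0 on the 4 h vehicle arrays, 170.5, 230.9 and 224.3 at 4 h, and 438.9, 585.6 and 414.8 at 8 h. The 3 arrays at 8 h lay above all vehicle arrays, but the difference of 1.50 ± 0.43 missed the threshold (adjusted p = 0.0572). Hey1 then read 733.2, 847.1 and 742.7 at 24 h and 427.3, 474.2 and 421.1 at 48 h. It was called at 24 h (2.09 ± 0.39, adjusted p = 0.000203) and at 48 h (1.30 ± 0.39, adjusted p = 0.0093). The 24 and 48 h groups were not called apart (-0.79 ± 0.39, adjusted p = 0.163), although their readings did not overlap. Each SE here, also at 8 h, comes from the spread pooled over all 8 groups. The SD of Hey1 signal was 63.2 at 24 h and 29.0 at 48 h, but 819.1 in resistant tumours at 40 mg/kg. With the untimed vehicle arrays as control, the 8 h difference was 1.40 and was called (adjusted p = 0.0271), but these 2 groups fall in different runs of title numbers.

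The resistant tumours at 40 mg/kg were uneven for Hey1, at 447.7, 1731.8 and 208.7, all above vehicle (1.61 ± 0.39, adjusted p = 0.0105). Replicate 2 carried much of the size: without it the difference was 0.80 (adjusted p = 0.0331). The call was lost without vehicle replicate 3 (1.46, adjusted p = 0.0569) and in a fit of the compared arrays alone (adjusted p = 0.161). At 160 mg/kg Hey1 read 162.3, 136.6 and 148.2, overlapping vehicle (-0.17 ± 0.39, 95% interval -0.97 to 0.63) and below every array at 40 mg/kg (-1.78 ± 0.39, adjusted p = 0.0116). Without replicate 2 of the 40 mg/kg group that difference was -0.97 (adjusted p = 0.0186).

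Id2, an E-protein inhibitor expressed in maturing as well as dividing neural cells, rose with the drug and was lowest in resistant tumours at 40 mg/kg. It read 1185.6, 1226.1 and 1551.2 on the vehicle arrays and 1021.8 and 960.8 on the 4 h vehicle arrays. It read 1566.6, 1882.5 and 1762.6 at 4 h and 2725.4, 1933.7 and 2314.2 at 8 h. All drug-treated arrays lay above all 5 vehicle arrays. At 4 h the difference of 0.80 ± 0.18 stood at the threshold and was not called (adjusted p = 0.0501). Probe sets 1422537_a_at and 1453596_at gave 0.67 and 0.52 at 4 h, far from the threshold (adjusted p = 0.698 and 0.755). By the leading set Id2 was called at 8 h (1.20 ± 0.18, adjusted p = 0.000151). Id2 stayed high at 2387.7, 2743.2 and 2706.8 at 24 h (0.98 ± 0.16, adjusted p = 3.56e-05) and at 2587.0, 2991.5 and 1989.3 at 48 h (0.92 ± 0.16, adjusted p = 4.56e-05). The groups at 8, 24 and 48 h did not differ from their neighbours in the order of levels.

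Id2 in resistant tumours at 40 mg/kg read 551.7, 707.9 and 446.3, below every other array of the series. The difference was -1.21 ± 0.16 against vehicle (adjusted p = 4.09e-05) and -2.12 ± 0.16 against 48 h (adjusted p = 4.35e-10). Id2 at 160 mg/kg read 1156.0, 1321.7 and 1477.3, overlapping vehicle (0.00 ± 0.16, 95% interval -0.32 to 0.33) and above 40 mg/kg by 1.21 ± 0.16 (adjusted p = 7.08e-05). The 3 Id2 probe sets correlated over the 23 arrays at Pearson r of 0.84 to 0.92. Probe set 1422537_a_at was called in both 40 mg/kg comparisons (-1.61 against vehicle and -2.27 against 48 h) and 1453596_at only against 48 h (-1.46), its difference from vehicle being -0.58 (adjusted p = 0.137). The rise at 24 and 48 h was called by the leading set and by 1453596_at, while 1422537_a_at gave 0.67 and 0.66 (adjusted p = 0.0605 and 0.0541). For 160 against 40 mg/kg, 1422537_a_at gave 1.26 (adjusted p = 0.00931) and 1453596_at gave 0.62 (adjusted p = 0.209).

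Id1, a BMP target, was called at 24 h alone among the drug times and was highest in resistant tumours at 40 mg/kg. It read 220.7, 299.4 and 218.6 on the vehicle arrays, 218.1 and 309.9 on the 4 h vehicle arrays, and between 163.8 and 234.5 on the 12 drug-treated arrays. At 24 h it read 163.8, 165.5 and 202.0, all below vehicle (-0.43 ± 0.16, adjusted p = 0.0445). That call was lost without drug replicate 1 or 2 or vehicle replicate 2 (adjusted p = 0.135, 0.128 and 0.237), without a filter (0.0539), without the variance trend (0.0653) and with runs of title numbers as a block (0.118). At 48 h the difference was -0.18 ± 0.16 (95% interval -0.51 to 0.15).

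Id1 in resistant tumours at 40 mg/kg read 528.4, 525.0 and 419.1, above every other array of the series. The difference was 0.96 ± 0.16 against vehicle (adjusted p = 0.000558) and 1.14 ± 0.16 against 48 h (adjusted p = 6.19e-06). At 160 mg/kg it read 258.9, 231.5 and 199.5, which overlapped vehicle (-0.09 ± 0.16, 95% interval -0.42 to 0.25) and lay below 40 mg/kg by -1.04 ± 0.16 (adjusted p = 0.000495). Over the 23 arrays the log2 signals of Id1 and Id2 correlated at r = -0.86, a description over arrays that share groups and scaling.

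**Figure D2:**
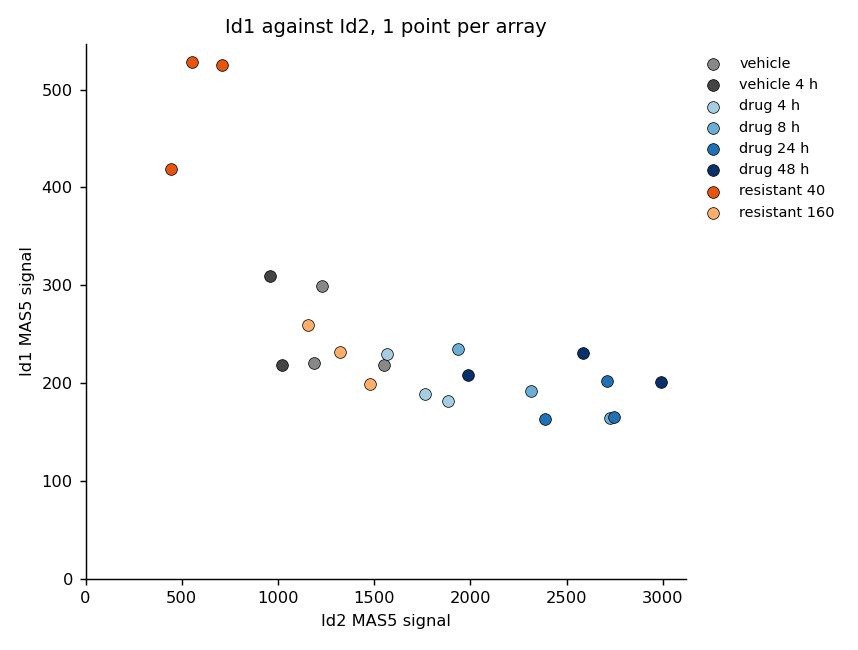
Signal of Id2 (horizontal axis) against Id1 (vertical axis), both linear from 0 in arbitrary units, with 1 point per array coloured by group. The 3 resistant arrays at 40 mg/kg lie apart at the upper left, with Id1 of 419.1 or more and Id2 of 707.9 or less.

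Of the resistant groups, 5 members were called at 40 mg/kg against vehicle, 3 higher (Id1, Hey1, Hes6) and 2 lower (Id2, Hes1), beside 9.84% of all tested genes. At 160 mg/kg 0 of 10 were called by limma, beside 1.44% of genes, and 0 had an unadjusted p below 0.05. Set directly against each other, 160 mg/kg differed from 40 mg/kg in 4 members, Id2 higher and Id1, Hes6 and Hey1 lower, beside 2.8% of genes. All 4 calls were lost when the fit held the 6 compared arrays alone (adjusted p = 0.0673 for Id2, 0.0876 for Id1, 0.267 for Hes6 and 0.525 for Hey1), where fewer arrays give the spread. Resistant tumours at 40 mg/kg and tumours at 48 h, which had received the same dose, differed in 6 members, beside 37% of genes. With no time label for the resistant group, resistance and length of dosing cannot be told apart there. Id1, Hes1, Hes6 and Heyl were higher and Id2 and Id3 lower in the resistant group. The 2 vehicle groups differed in 0 of 10 members by limma, beside 0.2% of genes, and 1 member, Id2, had an unadjusted p below 0.05.

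**Figure D3:**
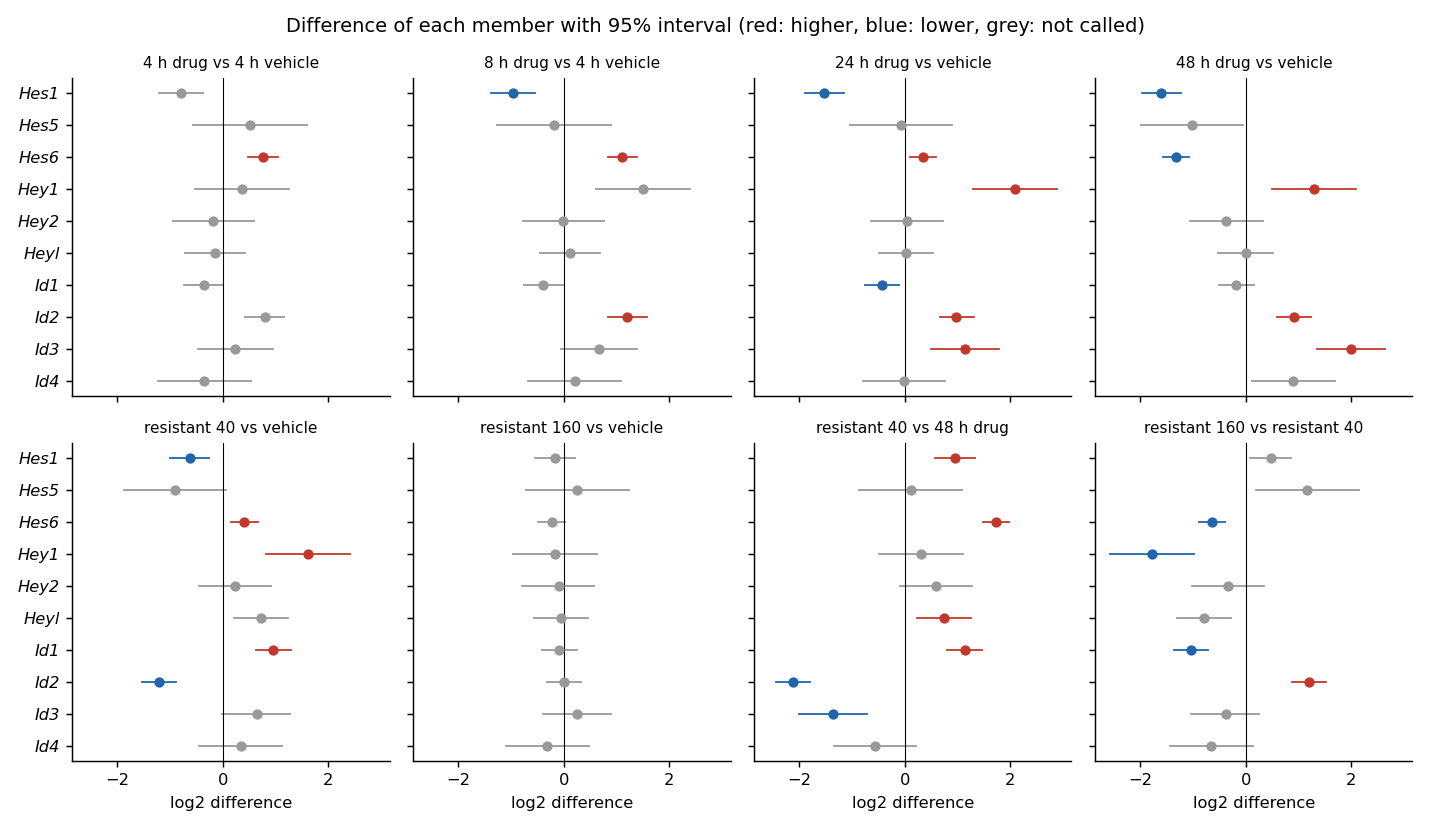
Log2 difference (horizontal axes) of each of the 10 members in 8 comparisons, as points with 95% intervals from the limma fit, red where called higher, blue where called lower and grey where the adjusted p is 0.05 or more. Id2 is above 0 at 8, 24 and 48 h and below 0 in resistant tumours at 40 mg/kg against vehicle, and all members are grey for 160 mg/kg against vehicle.

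Id3, an ID factor strongly expressed in vessel walls as well as in neural precursors, rose at 24 and 48 h. It read 55.8, 86.4 and 39.6 on the vehicle arrays, 34.8 and 44.1 on the 4 h vehicle arrays, 48.8, 58.6 and 40.9 at 4 h, and 89.7, 74.9 and 53.7 at 8 h. It then read 148.2, 142.1 and 155.2 at 24 h and 325.9, 206.3 and 330.8 at 48 h, above all vehicle arrays at both times. The rise was 1.15 ± 0.31 at 24 h (adjusted p = 0.00689) and 2.00 ± 0.31 at 48 h (adjusted p = 1.28e-05), and 48 h exceeded 24 h by 0.86 ± 0.31 without reaching the threshold (adjusted p = 0.0538). In resistant tumours it read 79.9, 180.7 and 65.4 at 40 mg/kg and 46.1, 57.1 and 136.1 at 160 mg/kg, neither called against vehicle (0.64 ± 0.31 and 0.25 ± 0.31). The 40 mg/kg group was below 48 h by -1.37 ± 0.31 (adjusted p = 0.00146).

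More endothelial markers rose at 48 h than at 24 h, while Id3 and Hey1 were higher at both times. Of 17 endothelial markers, 7 rose and 1 fell at 24 h, and 15 rose and 1, Sox18, fell at 48 h. Of all genes 34.1% were called at 24 h and 46.4% at 48 h. The summed endothelial signal ran from 1277 to 1947 with vehicle and 1859 to 2160 with the 4 h vehicle. Under the drug it ran from 1114 to 1190 at 4 h, 1163 to 1374 at 8 h, 1913 to 2446 at 24 h and 3039 to 4456 at 48 h. The sums at 24 h thus overlapped both vehicle groups. In resistant tumours the sum ran from 1442 to 3090 at 40 mg/kg and 2082 to 3409 at 160 mg/kg. None of the 17 was at or below 0.1 on all arrays of a group. In each resistant group the array with the highest Id3, replicate 2 at 40 mg/kg and replicate 3 at 160 mg/kg, was also the array with the highest endothelial sum (3090 and 3409). At 48 h the array with the lowest Id3, replicate 3, had the lowest endothelial sum, 3039. At 8 h, by contrast, the highest Id3 (replicate 1) came with the lowest sum, 1163, and the 2 arrays of the 4 h vehicle also ran opposite. Hey1 was highest with the highest sum at 40 mg/kg (replicate 2), but at 48 h and at 160 mg/kg its highest array, 474.2 and 162.3, had the lowest sum of the group, 3039 and 2082. From 24 to 48 h the group mean of Hey1 went from 774.3 to 440.9 while the sum was higher at 48 h. The Id3 match was not particular to the endothelial list. Replicate 2 at 40 mg/kg and replicate 3 at 160 mg/kg also had the highest pericyte and smooth muscle sums (7033 and 8582). The same held for fibroblast and matrix sums (19230 and 21550). Replicate 3 at 160 mg/kg had the highest macrophage sum as well (8636), while at 40 mg/kg replicate 1 did (9693). At 48 h replicate 3 was lowest for these lists too, at 5244, 33190 and 21250. The part of endothelial or other host cells in the Id3 and Hey1 values was not tested.

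Other host cell markers moved at the same times. All 11 macrophage markers rose at 48 h, their sum running from 21250 to 28540 against 1320 to 2207 with vehicle. In resistant tumours at 40 mg/kg 10 of 11 were higher than with vehicle, beside 9.84% of all genes called. At 160 mg/kg 7 of 11 were higher than with vehicle, beside 1.44% of all genes called. Fibroblast and matrix markers rose in 9 of 9 cases at 48 h, and 6 of 10 pericyte and smooth muscle markers rose at 24 h and 5 of 10 at 48 h. With 34.1% of all genes called at 24 h and 46.4% at 48 h, the pericyte count at 48 h does not set that list apart. Of 10 skeletal muscle markers 8 rose at 24 h and 0 were called at 48 h by limma, 2 having an unadjusted p below 0.05. Of 12 astrocyte and glial markers 3 rose and 3 fell at 24 h. Their part in the member values at these times was not tested. At 4 h, by limma, 0 markers of these lists were called except 1 endothelial marker, which was lower, and 3 of 12 glial markers had an unadjusted p below 0.05. At 8 h 1 endothelial and 1 glial marker were lower. Among 10 tested genes of the granule neuron lineage, 0 were called at 4 h, with 4 at an unadjusted p below 0.05, and 3 were higher at 8 h. Of all genes 0.347% were called at 4 h and 4.6% at 8 h.

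**Figure D4:**
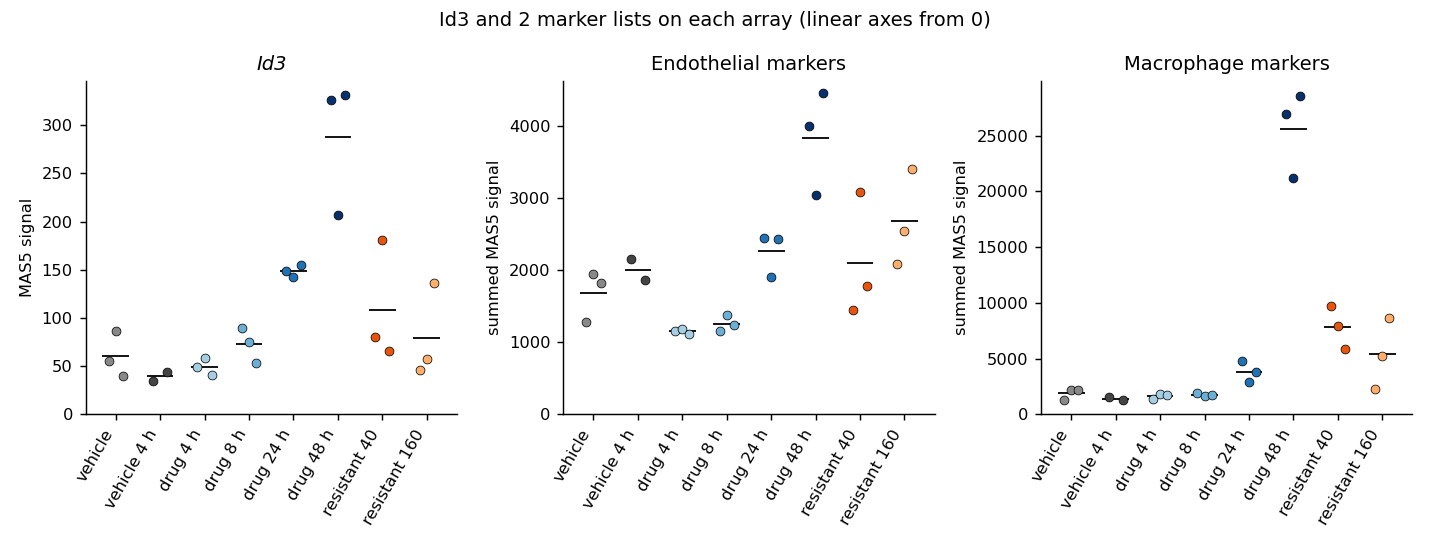
Id3 signal (left), summed signal of 17 endothelial markers (middle) and of 11 macrophage markers (right) on each of the 23 arrays (points, linear axes from 0, arbitrary units) in the 8 groups, with a line at each group mean. All 3 quantities are highest at 48 h, and in the resistant groups the array with the highest Id3 is also the one with the highest endothelial sum. At 160 mg/kg that array also has the highest macrophage sum.

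The other members were close to the low end of the array. Hes5, a Notch effector in neural stem cells, read from 1.2 to 89.5 and exceeded its array's 40th percentile on 12 of 23 arrays. Its lowest groups were 48 h (8.27 ± 7.42) and resistant at 40 mg/kg (12.6 ± 18.2, SD, n = 3 each), and it was called in 0 of 9 comparisons, with 2 unadjusted p below 0.05 and -1.02 ± 0.47 at 48 h (adjusted p = 0.0941). Hey2, best known from heart and arteries, read from 1.7 to 37.9 and passed the percentile on 4 of 23 arrays. Id4, which acts in neural precursors, read from 1.9 to 43.3, also passing on 4 of 23 arrays, of which 2 were 48 h arrays. The 48 h values of Id4, 43.3, 24.8 and 34.2, lay above those of vehicle by 0.90 ± 0.38 without reaching the threshold (adjusted p = 0.0664). Neither Hey2 nor Id4 was called in any of the 9 comparisons, Hey2 with 0 and Id4 with 1 unadjusted p below 0.05. In the pairwise contrasts Id4 was higher at 48 h than at 4 h (1.30 ± 0.38, adjusted p = 0.009) and lower at 160 mg/kg than at 48 h (-1.22 ± 0.38, adjusted p = 0.0164). Hes5 was called in the same 2 contrasts in the opposite directions (-1.41 ± 0.47, adjusted p = 0.0202, and 1.28 ± 0.47, adjusted p = 0.0405). The 2 probe sets of Hes5 correlated over the arrays at r = 0.41 and the 3 of Id4 at 0.06 to 0.49, so these values are uncertain.

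Heyl, a HEY factor of smooth muscle and of Notch-active cells, read from 28.1 to 102.3 and passed the percentile on 22 of 23 arrays. In resistant tumours at 40 mg/kg it read 76.6, 52.1 and 102.3, against 38.6 ± 1.57 with vehicle (SD, n = 3). The difference from vehicle was 0.73 ± 0.25 (adjusted p = 0.0778), and from 48 h 0.74 ± 0.25, which was called (adjusted p = 0.026) although the ranges overlapped. That call was lost without resistant replicate 1 or 3 or 48 h replicate 1 or 4 (adjusted p from 0.0584 to 0.153). Probe sets 1419303_at and 1438886_at gave 0.46 and 0.27 against 48 h and were not called (adjusted p = 0.388 and 0.705). The 3 Heyl sets correlated over the arrays at r of 0.03 to 0.43, so the Heyl values are uncertain. Pericyte and smooth muscle markers summed to between 3490 and 7033 in the resistant group and between 5244 and 8086 at 48 h, and their part in the Heyl value was not tested.

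**Figure D5:**
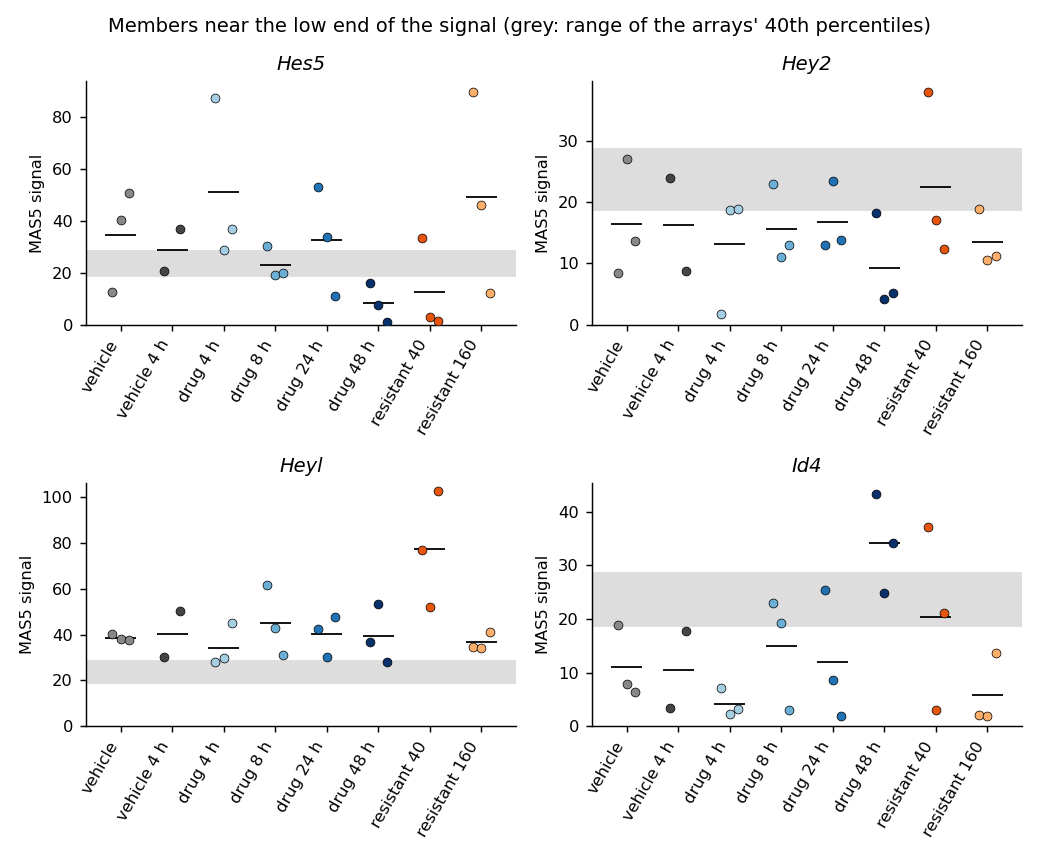
Signal of the 4 members of low signal, Hes5, Hey2, Heyl and Id4, on each of the 23 arrays (points, linear axes from 0, arbitrary units) in the 8 groups, with a line at each group mean and the range of the arrays' 40th percentiles, 18.7 to 28.6, shaded. Heyl lies above the shaded range on most arrays and is highest in resistant tumours at 40 mg/kg, while Hey2 and Id4 lie mostly within or below it.

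Ordered by mean log2 signal, the groups separated at few steps. For Id1 only the top step was called, resistant at 40 mg/kg above the 4 h vehicle (0.87, adjusted p = 0.00346), and no other neighbours differed. For Id2 only the bottom step was called, the 4 h vehicle above resistant at 40 mg/kg (0.81, adjusted p = 0.00535). Hes6 had 2 called steps, 24 h above vehicle (0.34) and resistant at 160 mg/kg above 48 h (1.09, adjusted p = 1.82e-07). Hey1 had 1, 48 h above 4 h (1.03, adjusted p = 0.0395), with 24 h, resistant at 40 mg/kg, 8 h and 48 h on its upper side. No neighbours in the orders of Hes1, Id3, Heyl, Hes5, Hey2 or Id4 were called apart, so the differences of Hes1 and Id3 were seen between groups farther apart in the order.

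The Notch list held receptors, ligands and modifiers, 29 of 32 tested. At 4 h 0 were called by limma (4 with an unadjusted p below 0.05), at 8 h 2 rose and 1 fell, at 24 h 9 rose and 5 fell, and at 48 h 10 rose and 5 fell, where 34.1% and 46.4% of all genes were called at 24 and 48 h, while the list's median was 0.32 at 24 h and 0.24 at 48 h beside 0.10 and 0.06 over all genes. Among those that fell were the ligand Jag1, from 484.2 ± 33.7 to 174.4 ± 24.4 at 24 h (-1.40 ± 0.19), and the receptor Notch2, from 468.3 ± 24.2 to 156 ± 15.7 (-1.50 ± 0.16). Dll3, a Notch ligand family member that acts inside the cell, fell to 75.87 ± 32.1 at 48 h from 1064 ± 164.7 (-3.60 ± 0.25). Dtx3, a Deltex family ubiquitin ligase, rose at 24 h (0.89 ± 0.15), Psen2, a gamma-secretase subunit, rose at 48 h (1.01 ± 0.17), and Mib1, which activates ligands, fell at 48 h (-0.96 ± 0.11).

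Dll3, like Hes6, was called higher at 8 h and lower at 48 h, at 1661.4, 1548.4 and 1404.9 at 4 h, 1951.5, 1970.6 and 1908.7 at 8 h and 65.3, 111.9 and 50.4 at 48 h. At 24 h Dll3 read 530.2, 470.7 and 585.6, called lower than vehicle (-0.98), while Hes6 was called higher by its leading probe set alone. That Hes6 call was lost without drug replicate 3 or vehicle replicate 1 or 3. The second Hes6 probe set gave -0.02 by limma (adjusted p = 0.951). Against the 4 h vehicle Dll3 was higher at 8 h by 1.13, and Mfng was the other Notch list gene that rose there. In resistant tumours at 40 mg/kg 2 of the 29 Notch genes were lower than with vehicle, Jag1 (-0.79) and Mib1 (-0.41), and 0 were higher, beside 9.84% of all genes called. Jag1 read 244.8, 262.2 and 313.3 in that group, which overlapped the 4 h vehicle arrays at 304.7 and 385.6. Against 48 h 3 Notch genes were higher and 9 lower, beside 37% of all genes called, with Dll3 at 993.9 ± 409.6 (3.44 ± 0.25). At 160 mg/kg 0 were called against vehicle by limma, and 3 had an unadjusted p below 0.05.

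The BMP and SMAD list had 22 of 28 genes tested, with 3 higher and 4 lower at 24 h and 5 higher and 3 lower at 48 h. With 34.1% and 46.4% of all genes called at these times, the counts do not set the list apart. Chrd, an extracellular BMP antagonist, fell from 168.2 ± 31.8 to 48.2 ± 18.8 at 24 h (-1.55 ± 0.23) and 28.3 ± 4.49 at 48 h (-2.05 ± 0.23). Nbl1, another BMP antagonist, rose at 24 h (1.94 ± 0.30), while the receptor Bmpr1a (-1.31 ± 0.13) and Smad4, the shared SMAD partner (-1.07 ± 0.13), fell at 48 h. The endothelial BMP receptor genes Acvrl1 (1.50) and Eng (0.89) rose at 48 h with the endothelial markers above.

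Among the 22, 1 gene in resistant tumours at 40 mg/kg was higher than with vehicle and 0 were lower, beside 9.84% of all genes called. It was Bmp7, a secreted BMP ligand, at 266.0, 255.7 and 166.4 against 45.7, 34.7 and 37.3 with vehicle (2.13). These 3 arrays held the highest Id1 and also the lowest Id2 of the series, and the part of Bmp7 in either was not tested. At 160 mg/kg Bmp7 read 47.4, 19.9 and 34.1, lower than at 40 mg/kg by -2.31, and Chrd was lower too (-0.92). Against 48 h 5 of 22 were higher at 40 mg/kg and 0 lower, beside 37% of all genes called. Bmp7 (2.82 ± 0.35), Chrd (2.30 ± 0.23) and Bmpr1a (1.28 ± 0.13) had the smallest p in the list.

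The proneural list, the factors that these repressors oppose, had 10 of 12 genes tested. At 24 h 6 rose and 2 fell, and at 48 h 6 rose and 3 fell, with a list median of 0.92 and 1.07. Of all genes 34.1% and 46.4% were called at these times, with medians of 0.10 and 0.06. Neurod1, a granule neuron differentiation factor, went from 304.6 ± 27.7 with vehicle to 3214 ± 456.6 at 24 h (3.33 ± 0.28) and 6435 ± 203.5 at 48 h (4.33 ± 0.28). Neurod6 (2.46 ± 0.27) and Nhlh1 (1.34 ± 0.16), both of postmitotic neurons, also rose at 24 h. Atoh1, which keeps granule precursors dividing, fell at 48 h to 1528 ± 285 from 4101 ± 522.8 (-1.42 ± 0.11). The 2 others that fell at 24 and 48 h were Olig1 and Olig2, factors of glial and progenitor cells, with Olig1 at -3.47 ± 0.29 at 48 h.

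Atoh1, like Hes6, was called lower at 48 h and not at 24 h. In resistant tumours at 40 mg/kg Neurod1 (2.18) and Neurod6 (2.25) were above vehicle, beside 9.84% of all genes called. They were the 2 of 10 called at 160 mg/kg too (1.50 and 1.43), beside 1.44% of genes. The 4 h vehicle arrays read higher than the untimed ones for both, at 672.0 and 579.7 against 336.1, 293.4 and 284.3 for Neurod1 and at 81.3 and 79.3 against 40.7 or less for Neurod6. The 160 mg/kg arrays, at 658.3, 672.4 and 1569.1 for Neurod1 and 63.2, 80.4 and 181.0 for Neurod6, overlapped the 4 h vehicle. Against 48 h 3 of 10 were higher at 40 mg/kg, Atoh1 (1.22 ± 0.11), Olig2 (2.08 ± 0.22) and Olig1 (2.58 ± 0.29), and 5 were lower. Of all genes 37% were called there.

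By Pearson r of log2 signal over the 23 arrays, a description over arrays that share groups and scaling, the gene most like Id2 was Sox4 (0.933), then Adgrb3 (0.924) and Lrrtm1 (0.921). Those most like Id1 were Kcns2 (0.902), Padi4 (0.891) and Ier2 (0.886). For Id3 the closest were Mmrn2 (0.949), an endothelial matrix gene, then Ifitm3 and Ap1s2 (0.936 each). Hes1 was most like Lpin2 (0.951), Ets2 (0.938) and Blmh (0.936). Hes6 was most like Tead2 (0.912), Mycl (0.899) and Adamts10 (0.896), and Hey1 like Ahcyl2 and Trp53inp1 (0.887 each) and Blcap (0.877). Heyl had weaker likeness, with Pdcl at 0.764, Cacna1s at 0.713 and Ccnd3 at 0.708.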

How the data were processed

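Biotinylated RNA from tumour tissue was hybridised to 23 Affymetrix mouse arrays, 1 per sample. The deposited values are linear signal intensity from MAS5, per the submitters' processing notes, whose version is not given in the sources used here. All arrays share 1 value of their 2% trimmed mean, to which the authors had therefore scaled them. Such intensities give no counting error, and the number of arrays limits the precision. The design text names the 430A 2.0 array, while 45101 probe sets is the layout of the larger 430 2.0. Of the probe sets other than the 64 controls, 34945 carry 1 symbol in the supplied annotation, and 932 of all carry several and 9211 none.

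Arrays were grouped by their description. An offset of 16 was added to each signal before log2. Testing covered 35069 probe sets (14980 genes) that exceeded the 40th percentile of 2 or more arrays. One limma 3.58.1 fit in R 4.3.3 held a mean for each of 8 groups, with eBayes(trend = TRUE), which gave 15 residual degrees of freedom and added 8.5 from the prior. Tests were two-sided, with Benjamini-Hochberg adjustment over all tested probe sets within each of 9 comparisons or 28 pairwise contrasts. The scripts were tested on simulated data.

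The members and lists were chosen with earlier results of these data known. Named genes are the members, the 3 genes most like each called member, and the 3 called genes of smallest p in each list at 24 h, 48 h and in resistant tumours at 40 mg/kg against 48 h. Gli1 and 5 tumour markers were named as checks. Sox18, Acvrl1, Eng and Mfng were chosen after their values were seen. Same-numbered arrays did not pair (sensitivity gives the check). Alternatives were the offset, filter, scaling, variance trend, arrays in the fit, control group, replicate number or title run as a block, any probe set of a gene, and leaving out each array.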

Additional observations from a re-analysis of the deposited data

Results flagged for a closer look

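Within the drug course, Hes6 at 48 h differed from 24 h by -1.66 log2 by limma (adjusted p = 4.52e-09). Hes6 was below vehicle at 48 h, and at 24 h it was called above vehicle by its leading probe set alone.

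Resistant tumours at 40 mg/kg and the tumours at 48 h of the same dose differed directly in 6 members, beside 37% of all genes called. The descriptions do not call the 48 h tumours sensitive. The resistant group has no time label, so resistance and length of dosing cannot be told apart. Id1 was higher in the resistant group by 1.14, Hes1 by 0.96, Hes6 by 1.73 and Heyl by 0.74, and Id2 and Id3 were lower, at -2.12 and -1.37. By the leading probe sets all 3 arrays of each group lay apart except for Heyl, whose ranges overlapped and whose other probe sets were not called. That separation is not separate support, since these members were picked as called.

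The 2 resistant groups differed directly in 4 members, beside 2.8% of all genes called. Against 40 mg/kg, the 160 mg/kg group had Id1 at -1.04, Hes6 at -0.64, Hey1 at -1.78 and Id2 at 1.21. By the leading probe sets all 3 arrays of each group lay apart, which is not separate support since these members were picked as called. The ranges of the other Id2 and Hes6 probe sets overlapped, and of these only 1422537_a_at of Id2 was called. The labels do not state whether the 2 groups come from 1 resistant line or several, so dose and tumour line cannot be told apart. Groups of 2 or 3 arrays were not searched for a single outlying array.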

How the results depend on the processing

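Of the 30 member calls, each followed by its leading probe set alone, 18 held under every alternative run, 12 were lost under at least 1, and 0 reversed. Some of the 18 were not called by another probe set of the gene, as with Id2 at 8 h by 1453596_at (adjusted p = 0.167). At 4 h the count of called members, 1 as reported, was 2 with an offset of 64, the 60th percentile, all 5 vehicle arrays or the other vehicle group as control, 3 with only the compared arrays, and 0 with the title run as a block. In resistant tumours at 40 mg/kg against vehicle the count of 5 was 3 without the variance trend and 2 with only the compared arrays, and for 160 against 40 mg/kg the count of 4 was 0 with only the compared arrays. Leaving out each array in turn gave 0 to 1 members at 4 h, 2 to 3 at 8 h, 5 at 24 h, 5 to 7 at 48 h, 3 to 5 for resistant at 40 mg/kg against vehicle, 0 at 160 mg/kg against vehicle, 5 to 6 at 40 mg/kg against 48 h, 4 between the doses and 0 between the vehicle groups. Pairs of same-numbered arrays correlated at -0.1 to 0.08 over 22 pairs, so the numbers were not taken as pairs, and 2 of 3 arrays at 160 mg/kg were closest to the vehicle array of their own number, against 0 of 3 in each of the other 3 comparisons tested. With the replicate block the counts in the order of the 9 comparisons were 1, 4, 6, 5, 4, 0, 5, 4 and 0. The block added Hey1 at 8 h (1.64, adjusted p = 0.0291), and Hes6 in resistant tumours at 40 mg/kg (adjusted p = 0.0578) and Heyl against 48 h (0.64, adjusted p = 0.108) were lost. Quantile normalization moved the median of all genes to between -0.02 and 0.05. Signal near the 40th percentile limits what could be seen of Hes5, Hey2 and Id4.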

Other observations

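Of the 3 E proteins, which ID proteins bind, 0 were called at 24 h (2 with an unadjusted p below 0.05), and Tcf3 fell at 48 h from 403.8 ± 42.6 to 276.8 ± 39.6 (-0.52 ± 0.12, adjusted p = 0.00081 by limma). In resistant tumours at 40 mg/kg, against 48 h, Tcf3 (0.47 ± 0.12) and Tcf12 (0.28 ± 0.10) were higher and Tcf4 was lower (-0.56 ± 0.12). Of all genes 37% were called there.

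Of 6 tested Groucho/TLE corepressors, which HES proteins recruit, 3 rose and 1 fell at 24 h, and 1 rose and 1 fell at 48 h. At these times 34.1% and 46.4% of all genes were called. Tle1 fell from 593.1 ± 34.3 with vehicle to 174.1 ± 34.0 at 48 h (-1.69 ± 0.12) and stood at 649.5 ± 17.4 in resistant tumours at 40 mg/kg. Tle2 rose at 24 h from 129.4 ± 22.9 to 531.8 ± 43.0 (1.92 ± 0.25), and so did Tle5, a short TLE family member, from 580.5 ± 34.6 to 1140 ± 109.8 (0.95 ± 0.14). Of 2 tested HES-related factors, Bhlhe40 fell at 24 h to 31.8 ± 19.2 from 77.7 ± 8.38 (-1.06 ± 0.34, adjusted p = 0.02 by limma). Signals are given here with SD (n = 3) and log2 differences with SE.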
